A study of Mus musculus with 6 samples.

Results

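The motile cilia genes described here are 10 transcripts by which ependymal cells, the ciliated lining of the brain ventricles, are commonly recognised: Foxj1, Rsph1, Tekt1, Ccdc153, Pifo, Mlf1, Meig1, Fam183b, 1110017D15Rik and Tmem212. They were taken by symbol from the 24346 genes listed for each library, and all 10 were found and passed the filter on low values (1 FPKM or more in at least 3 libraries), as did 13122 genes in all. FPKM is fragments per kilobase of transcript and per library depth, and the deposited numbers, log2(value + 1), are given below on that reading. The 10 were picked with earlier results on these same libraries in view, so their levels, their genotype differences and their co-variation are given as descriptions, with no test resting on them.

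The samples were 6 libraries of hippocampal RNA from C57BL/6 mice aged 12 months. The 3 wild-type libraries (WT 1 to WT 3) are from TonEBP+/+ animals, and the 3 libraries labelled TonEBP+/- (HET 1 to HET 3) are from heterozygous littermates. TonEBP is the NFAT-related transcription factor that cells use in hypertonic stress, and its gene is Nfat5. Both genotypes came from crosses of TonEBP+/- parents and had been back-crossed to C57BL/6J for 5 or 6 generations. No treatment is named for either genotype. The labels give each animal only a number within its genotype, so any p-value measures the spread between these samples, which may be technical.

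Motile cilia beat to move fluid, and in the brain a carpet of them on each ependymal cell moves cerebrospinal fluid along the ventricle wall. Their shaft, the axoneme, is built of microtubule doublets around a central pair, with dynein arms as motors, radial spokes and a regulatory complex that control the motors, and inner proteins such as tektins that stiffen the doublets. The transcription factor Foxj1, together with RFX factors that bind a paired DNA motif called the X-box, switches on the genes for these parts. Epithelial cells of the choroid plexus, which makes cerebrospinal fluid, also carry cilia, while most neurons and astrocytes carry a single primary cilium without these motor parts.

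Promoter sequence is shown first because the factors named above read short DNA words. Its part in the co-variation of the members over the libraries was not tested. RefSeq windows (GRCm38.p6, 250 bases before to 50 bases after a start site) were matched for 8 of the 10 genes, with 13 windows in all. Rsph1 and Foxj1 had none. The words were searched on both strands: GTTGCC, an arm of the X-box; GTTNCC followed after 0 to 3 bases by GGNAAC, a facing pair of arms, which can overlap the single arm; and GTAAACA, a forkhead word. The stretches below are 100 bases each, 5′ to 3′ on the strand of the gene, with matched letters in capitals.

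The first 3 promoters held the facing pair. They are Fam183b (chr11:58801961-58802060, minus strand), 1110017D15Rik (chr4:41507765-41507864, minus strand) and Pifo (chr3:106001498-106001597, minus strand), each ending at the base before the start site.
Fam183b: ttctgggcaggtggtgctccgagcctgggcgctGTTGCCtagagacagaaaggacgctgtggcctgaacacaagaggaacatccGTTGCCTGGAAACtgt
1110017D15Rik: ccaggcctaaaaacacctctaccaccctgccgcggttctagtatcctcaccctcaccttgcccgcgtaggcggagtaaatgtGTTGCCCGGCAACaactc
Pifo: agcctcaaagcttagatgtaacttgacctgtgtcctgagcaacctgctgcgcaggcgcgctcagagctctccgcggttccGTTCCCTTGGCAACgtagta
In 1110017D15Rik the pair ran from base -18 to base -6 relative to the start, in Fam183b from -16 to -4, and in Pifo from -20 to -7. The single arm occurred in all 3, and in Fam183b also at -67 to -62. For Pifo and 1110017D15Rik the printed stretch belongs to the more downstream of their RefSeq start sites. Their other window, near the 5′ end of the gene model, held none of the searched letters.

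The other 3 promoters with a match held single arms only, and Mlf1 also the forkhead word. They are Mlf1 (chr3:67373945-67374044, plus strand), Ccdc153 (chr9:44240478-44240577, plus strand) and Tekt1 (chr11:72361883-72361982, minus strand). The RefSeq start behind the Tekt1 window is not that of a GENCODE transcript, and the gene model extends upstream of it to 72362442.
Mlf1: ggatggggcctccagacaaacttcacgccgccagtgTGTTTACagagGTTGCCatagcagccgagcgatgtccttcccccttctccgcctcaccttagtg
Ccdc153: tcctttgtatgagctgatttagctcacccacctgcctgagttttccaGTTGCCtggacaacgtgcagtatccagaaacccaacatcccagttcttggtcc
Tekt1: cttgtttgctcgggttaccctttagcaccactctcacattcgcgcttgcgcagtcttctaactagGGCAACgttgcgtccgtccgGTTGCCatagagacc
In Mlf1 the forkhead word lay at -116 to -110 and the arm at -105 to -100. Meig1 and Tmem212 held none of the searched letters in their windows. Over the 13 windows, 46.2% held the single arm against 12.5% of all 32851 promoter windows. The facing pair was in 23.1% against 0.804%, and the forkhead word in 7.69% (1 window) against 3.65%. In 109 windows of other motile cilia and ependymal genes the single arm was in 45.9%, the facing pair in 2.75% and the forkhead word in 6.42%. These are counts of letters and not of bound sites, and binding of any factor was not analysed here.

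The disrupted gene comes before the members. Nfat5 was at 10.5, 8.39 and 9.72 FPKM in WT 1 to WT 3 and at 8.25, 9.31 and 8.42 FPKM in HET 1 to HET 3, and the genotypes overlapped. The log2 difference, HET minus WT, was -0.12 (SE 0.0963). A whole-gene value can include transcripts of a disrupted allele, so it does not check the labels. Estimated from the steps between low values, the libraries held 8000000 (HET 1) to 12700000 (HET 3) fragments. Of 11 hippocampus markers, among them Prox1 of the dentate gyrus and Neurod6 of pyramidal cells, all 11 passed the filter. Their summed level lay between 276 FPKM (HET 2) and 343 FPKM (HET 1). All 15 listed thalamus and habenula markers passed the filter as well, so expression alone does not check the identity of the tissue.

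The 10 motile cilia genes did not separate the genotypes. They separated libraries within each genotype: WT 2, HET 1 and HET 3 were high and WT 1, WT 3 and HET 2 were low for most of them. The 10 genes summed to 35.9, 63.9 and 36.1 FPKM in WT 1 to WT 3 and to 58.7, 29.6 and 63.9 FPKM in HET 1 to HET 3. The highest library therefore held 2.16 times the sum of the lowest, and each genotype had libraries at both ends. In bulk tissue, fewer ciliated cells and less of these transcripts per cell cannot be told apart.

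**Figure D1:**
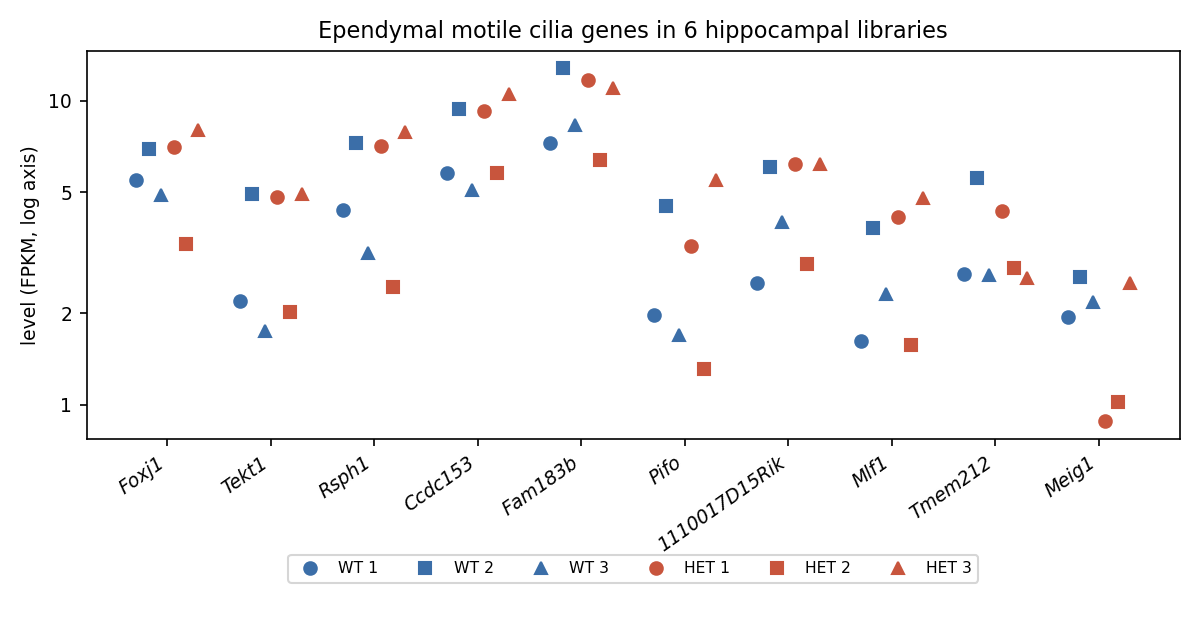
Level of each of the 10 motile cilia genes (FPKM, log axis) in the 6 libraries, 1 point per library. WT 2, HET 1 and HET 3 were the 3 highest libraries in 8 of the 10 genes, and the genotypes overlapped in every gene.

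Foxj1, the transcription factor that drives the motile cilia programme, was at 5.49, 6.95 and 4.88 FPKM in WT 1 to WT 3 and at 7.06, 3.38 and 7.98 FPKM in HET 1 to HET 3. The HET libraries thus held both the lowest and the highest value, and the wild-type values fell between them. The log2 difference was 0.02 (SE 0.279), with a highest to lowest ratio of 2.36. Foxj1 (chromosome 11, 116330704 to 116335499, minus strand, GRCm38) has the longest transcript of the 10 and the best counting support, at an estimated 78.0 to 266 fragments per library.

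The structural members came next. Rsph1, a protein of the radial spoke head, was at 4.38, 7.26 and 3.16 FPKM in WT 1 to WT 3 and at 7.09, 2.45 and 7.90 FPKM in HET 1 to HET 3. WT 2, HET 1 and HET 3 lay within 7.09 to 7.90 FPKM and the other 3 libraries at or below 4.38 FPKM. The log2 difference between genotypes was 0.14 (SE 0.471), against a within-genotype SD of 0.64. The gene lies on chromosome 17 from 31255019 to 31277296, minus strand.

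Tekt1 encodes a tektin, a filament protein inside the doublet microtubules. It was at 2.19, 4.92 and 1.75 FPKM in WT 1 to WT 3 and at 4.80, 2.03 and 4.94 FPKM in HET 1 to HET 3. WT 2, HET 1 and HET 3 stood 2.19 times or more above the rest, so that no library lay between 2.19 and 4.80 FPKM. The log2 difference was 0.34 (SE 0.390). Tekt1 (chromosome 11, 72344717 to 72362442, minus strand) had the largest positive difference of the 10, and its 95% interval ran from -0.62 to 1.30.

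Ccdc153 encodes a subunit of the nexin-dynein regulatory complex, which links neighbouring doublets. It was at 5.78, 9.39 and 5.09 FPKM in WT 1 to WT 3 and at 9.22, 5.80 and 10.5 FPKM in HET 1 to HET 3. The same 3 libraries were at 9.22 FPKM or more and the other 3 at 5.80 FPKM or less. The log2 difference was 0.30 (SE 0.265), less than the within-genotype SD of 0.40. The gene lies on chromosome 9 from 44240677 to 44247306, plus strand.

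Pifo, or pitchfork, acts at the base of cilia, and it had the widest range of the 10. Its level was 1.98, 4.50 and 1.69 FPKM in WT 1 to WT 3 and 3.32, 1.31 and 5.48 FPKM in HET 1 to HET 3, a highest to lowest ratio of 4.19. Here HET 1 stood nearer the middle than in Tekt1 or Rsph1, although it was still above WT 1, WT 3 and HET 2. The log2 difference was 0.18 (SE 0.475). Pifo lies on chromosome 3 from 105996957 to 106014646, minus strand.

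Mlf1, known from a fusion gene in myeloid leukaemia and expressed in ciliated cells, was at 1.62, 3.81 and 2.31 FPKM in wild type. In HET 1 to HET 3 it was at 4.13, 1.57 and 4.77 FPKM. WT 1 and HET 2, the lowest library of each genotype, were nearly equal. The log2 difference was 0.29 (SE 0.364). Mlf1 lies on chromosome 3 from 67374097 to 67400000, plus strand.

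Fam183b, a gene of ciliated cells, was the most abundant of the 10, at 7.27, 12.8 and 8.33 FPKM in WT 1 to WT 3 and 11.7, 6.37 and 11.0 FPKM in HET 1 to HET 3. The genotype means were 9.45 ± 2.91 and 9.69 ± 2.91 FPKM (SD, n = 3 each), with a log2 difference of 0.03 (SE 0.274). 1110017D15Rik, listed by RefSeq with the synonyms Smrp1 and Cbe1, was at 2.52, 6.04 and 4.0 FPKM in WT 1 to WT 3 and at 6.18, 2.90 and 6.20 FPKM in HET 1 to HET 3. Its 3 high libraries lay within 6.04 to 6.20 FPKM, and the log2 difference was 0.23 (SE 0.340). Fam183b lies on chromosome 11 from 58783892 to 58802221 and 1110017D15Rik on chromosome 4 from 41505005 to 41517366, both on the minus strand.

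Meig1 and Tmem212 departed from that order. Meig1, which is needed to build sperm flagella, was at 1.94, 2.64 and 2.18 FPKM in WT 1 to WT 3 and at 0.885, 1.03 and 2.52 FPKM in HET 1 to HET 3. HET 1, high in most members, was its lowest library, while HET 3 lay within the wild-type range, so the genotypes overlapped. The log2 difference of -0.45 (SE 0.226, 95% interval -0.96 to 0.06) was the largest of the 10 in size. It was -0.73 without HET 3, -0.28 without HET 1 and -0.71 with a pseudocount of 0.1 in place of 1. The values rest on an estimated 4.27 to 19.3 fragments per library, and counting error alone was 48.4% at the lowest. Meig1 lies on chromosome 2 from 3409043 to 3422648, minus strand.

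Tmem212, a membrane protein gene used as an ependymal marker, was at 2.70, 5.57 and 2.67 FPKM in WT 1 to WT 3 and at 4.33, 2.81 and 2.60 FPKM in HET 1 to HET 3. HET 3, the highest library for 7 members, was its lowest. The log2 difference was -0.09 (SE 0.252). Its estimated support was 17.7 to 34.9 fragments per library. Tmem212 lies on chromosome 3 from 27866065 to 27896391, minus strand. In the GENCODE annotation of GRCm38, Rsph1, Mlf1, Pifo and Tmem212 overlap other gene models, and no source used here says whether the counting used strand, so reads shared with those models cannot be told apart.

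Between genotypes, 8 of the 10 members lay higher and 2 (Meig1 and Tmem212) lower in the libraries labelled TonEBP+/-, with a median log2 difference of 0.16. Over all 13122 tested genes 6561 lay higher and 6561 lower, with a median of -0.00. In limma with Benjamini-Hochberg adjustment, 0 of the 10 passed an adjusted p of 0.05 and 0 had an unadjusted p under 0.05, where 0% of all tested genes passed and 484 had an unadjusted p under 0.05. In 0 of the 10 did the genotypes lie apart, against 8.52% of all tested genes. The standard errors of the 10, from 0.226 to 0.475, were close to or above most of the differences, and no such difference was detectable with 3 libraries per genotype. Leaving out WT 2 moved the median difference to 0.45, leaving out HET 2 to 0.53 and leaving out HET 3 to -0.03, which is a change of sign. It was -0.02 without WT 3, 0.02 without HET 1 and 0.03 without WT 1.

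**Figure D2:**
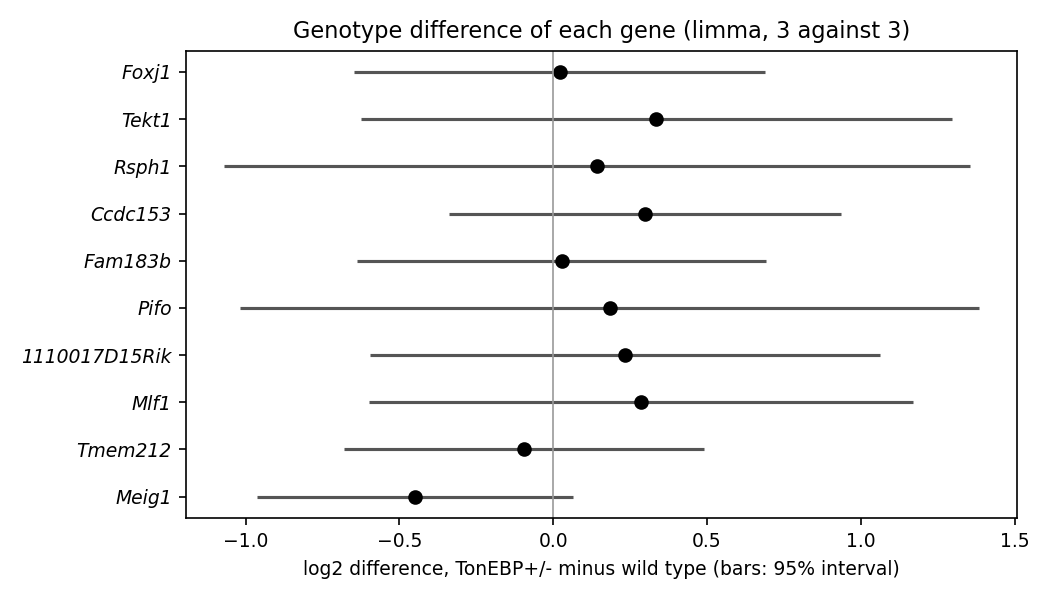
Log2 difference, HET minus WT, of the 10 genes with 95% intervals from limma (3 libraries per genotype). Every interval includes 0, from Meig1 at -0.45 to Tekt1 at 0.34.

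The spread over libraries is set here against that of other genes. A highest minus lowest value cannot be smaller than the difference between genotype means, so those measures are not compared. On the log2 scale the highest and lowest library differed by 0.87 (Tmem212) to 1.49 (Pifo), with a median of 1.03, while the median over 5134 tested genes at the mean level of the members was 0.36. Each member ranged more widely than 95.4% to 99.0% of those genes. On the mean of the 10 log2 deviations the libraries stood at -0.29 (WT 1), 0.42 (WT 2) and -0.28 (WT 3), and at 0.25 (HET 1), -0.51 (HET 2) and 0.40 (HET 3). The range of this mean was 0.92, and it was 0.70 without HET 2, the library with the lowest mean.

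The order of libraries was shared by most members. WT 2, HET 1 and HET 3 were the 3 highest in 8 of the 10, where 10.8% of all tested genes and 8.06% of those at the members' mean level had that order. The set of 3 libraries was named after the values were seen. HET 3 was the highest library in 7 members and WT 2 in 3, and HET 2 was the lowest in 5. WT 2 was among the upper 3 in all 10. Within the upper set the order varied: in Fam183b WT 2 led, while in Mlf1, Foxj1 and 1110017D15Rik HET 1 came before WT 2. Over the 6 libraries, which fall into 3 high and 3 low and so carry little beyond that split, Pearson's r of a member with the mean of the others was 0.904 to 0.967 in 8 members, 0.542 in Tmem212 and 0.286 in Meig1.

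Other genes of motile cilia, from lists grouped by part of the axoneme, followed the members unevenly. Against the 10.8% of all tested genes, the shared order of libraries was found in 15 of 26 other ependymal genes (57.7%), 5 of 11 tektins and microtubule inner proteins, 5 of 13 radial spoke and central pair genes, 2 of 7 axonemal dyneins, and 1 each of 7 nexin and ruler genes, 7 dynein arm assembly factors and 5 regulators. The median range over libraries fell in much the same order, from 0.85 in other ependymal genes and 0.66 in radial spoke genes to 0.37 in nexin and ruler genes and 0.35 in assembly factors. In all of these lists 0 genes passed the limma test of genotype (smallest adjusted p = 1.00).

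Among the other ependymal genes, 20 lay higher and 6 lower in the libraries labelled TonEBP+/- (median log2 difference 0.10). That median was 0.29 without HET 2 and 0.22 without WT 2, but 0.03 without WT 3 and 0.04 without HET 3, and it was 0.18 with a pseudocount of 0.1. Dynlrb2, a dynein light chain gene, was at 6.42, 8.13 and 3.5 FPKM in WT 1 to WT 3 and at 9.56, 4.33 and 11.3 FPKM in HET 1 to HET 3 (log2 difference 0.39, SE 0.430). Rarres2, the gene for chemerin, was at 14.7, 18.8 and 10.9 FPKM in WT 1 to WT 3 and at 17.6, 11.0 and 18.0 FPKM in HET 1 to HET 3. Both had WT 2, HET 1 and HET 3 as their highest libraries. Cd24a, a surface protein gene of ependymal and immature cells, differed less, at 7.45, 8.71 and 6.38 FPKM against 7.20, 5.30 and 8.71 FPKM.

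Radial spoke and central pair genes lay higher in 9 and lower in 4 of 13 (median 0.02, and from -0.04 without WT 3 to 0.14 without WT 2). Rsph9, a spoke head gene like Rsph1, was at 16.2, 19.1 and 12.8 FPKM in WT 1 to WT 3 and at 16.6, 13.8 and 17.9 FPKM in HET 1 to HET 3. The same 3 libraries were highest as for Rsph1, but the highest to lowest ratio was 1.5 against 3.23. Rsph4a, a further spoke head gene, had a ratio of 1.71. Cfap74, a central pair gene, was at 5.77, 5.84 and 5.67 FPKM in WT 1 to WT 3 and at 5.61, 4.37 and 5.02 FPKM in HET 1 to HET 3. It was the 1 gene of this list whose genotypes did not overlap (log2 difference -0.18, SE 0.1), where 4.39% of all tested genes lay apart in that direction.

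Tektins and inner proteins lay higher in 6 and lower in 5 of 11 (median 0.02, and from -0.06 without WT 1 to 0.13 without HET 2). Cfap52 followed the members at 0.499, 1.23 and 0.690 FPKM in WT 1 to WT 3 and at 1.12, 0.610 and 2.00 FPKM in HET 1 to HET 3. Nme7, a kinase-family gene of the doublet, did not: it was at 9.81, 9.36 and 10.1 FPKM against 8.79, 9.87 and 9.17 FPKM. Nexin and ruler genes lay higher in 3 and lower in 4 of 7 (median -0.00, and from -0.04 without WT 3 to 0.05 without HET 2). Among them Ccdc39, a ruler of the spacing along the doublet, was at 4.37, 5.71 and 4.63 FPKM against 5.90, 5.84 and 6.11 FPKM, with all 3 HET libraries above the wild type (log2 difference 0.24, SE 0.105). In that direction 4.13% of all tested genes lay apart, and the adjusted p in limma was 1.00.

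Among genes above the filter, motors and their assembly factors were flatter, with median ranges of 0.41 and 0.35 on the log2 scale. Not every motor gene was flat: Dnali1 had a highest to lowest ratio of 2.85. Motor genes below the filter were mixed. Dnah6 was highest in WT 2, HET 1 and HET 3 (0.751, 0.926 and 0.947 FPKM), while Dnah5 was highest in HET 2 (0.974 FPKM). Of 23 listed axonemal dyneins and docking genes, 16 were below the filter, and of the 7 tested 5 lay higher and 2 lower (median 0.05, and from -0.04 without WT 3 to 0.09 without WT 2). Dnah9, an outer arm heavy chain gene, was at 2.75, 2.82 and 2.95 FPKM in WT 1 to WT 3 and at 3.45, 2.49 and 3.65 FPKM in HET 1 to HET 3. Dnal4, a light chain gene with a higher level, was at 18.7, 17.3 and 20.3 FPKM against 20.8, 19.7 and 21.0 FPKM. Assembly factors lay higher in 4 and lower in 3 of 7 (median 0.02, and from -0.08 without HET 3 to 0.04 without HET 2), and Spag1 among them ranged only from 2.79 (WT 1) to 3.37 FPKM (HET 3).

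Regulators above the filter, other than Foxj1, did not share its spread. Those below the filter were mixed. Gmnc had WT 2, HET 1 and HET 3 as its highest libraries (0.871, 0.998 and 1.15 FPKM). It was at 0.823, 0.567 and 0.601 FPKM in WT 1, WT 3 and HET 2. Ccno was highest in WT 1 (0.743 FPKM). The 5 tested regulators all lay higher by 0.01 to 0.11 on the log2 scale (median 0.08, and from 0.01 without WT 1 to 0.12 without WT 2), and 8 of the 13 listed were below the filter. Rfx3, an RFX factor of ciliated cells that neurons also express, was at 17.6, 19.1 and 19.5 FPKM in WT 1 to WT 3 and at 20.0, 19.1 and 21.6 FPKM in HET 1 to HET 3, a highest to lowest ratio of 1.23 against 2.36 for Foxj1. E2f5, which takes part in building multiple cilia, lay between 8.44 (WT 3) and 11.1 FPKM (WT 2). Rfx1 ran opposite to the members, with HET 2 as its highest library at 2.87 FPKM and WT 2 as its lowest at 1.71 FPKM.

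**Figure D3:**
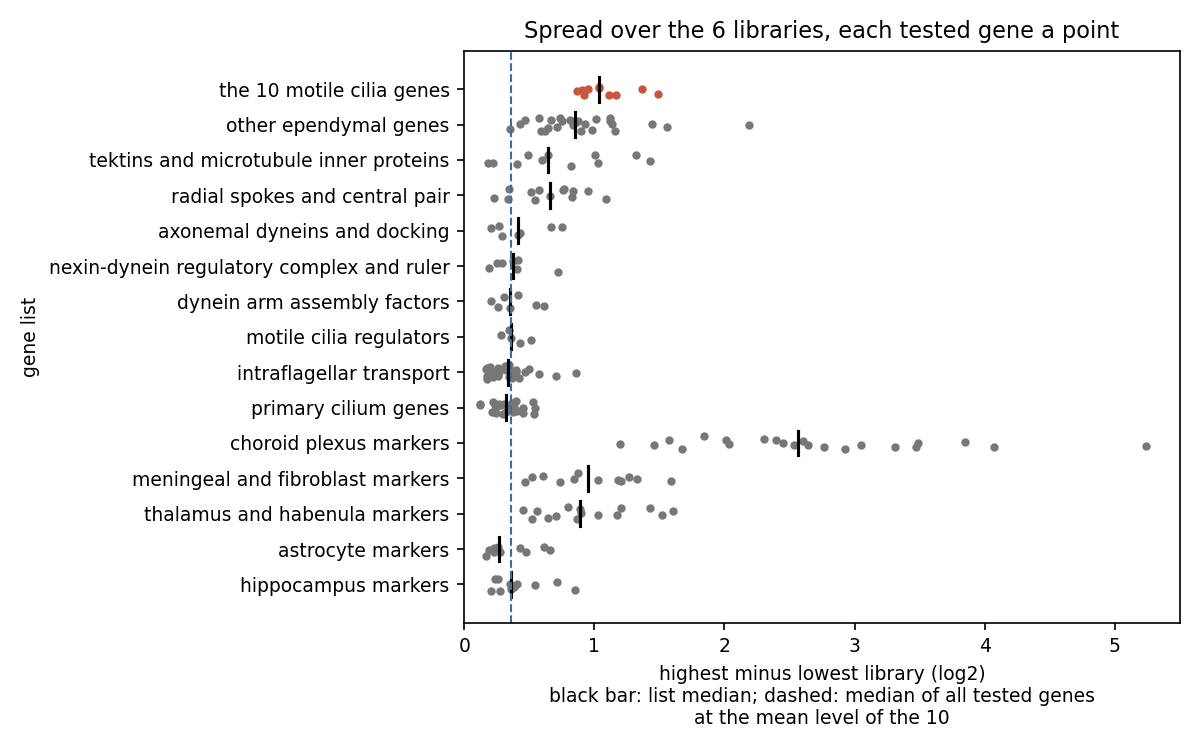
Highest minus lowest of the 6 libraries (log2) for every tested gene, by list, with the list median as a bar and the median of genes at the members' mean level as a dashed line. The 10 motile cilia genes range from 0.87 to 1.49, primary cilium genes have a median of 0.32, and choroid plexus markers one of 2.57.

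Cilia genes that non-motile cilia also need were nearly level over the libraries. Intraflagellar transport genes, the trains that carry cargo along any cilium, lay higher in 18 and lower in 10 of 28 (median 0.01), and 4 of the 28 (14.3%) had the library order of the members. Primary cilium genes lay higher in 17 and lower in 9 of 26 (median 0.03), with 3 of the 26 (11.5%) in that order. Both shares were near the 10.8% of all tested genes. With 1 library left out the median ran from -0.02 (without HET 3) to 0.05 (without WT 2) for transport genes and from 0.00 (without WT 1) to 0.04 (without WT 2) for primary cilium genes. All 3 HET libraries lay above the wild type in 3 of the 28 and 3 of the 26, and below it in 0 of either list, where 4.13% of all tested genes lay apart upwards and 4.39% downwards. Arl13b, a ciliary membrane GTPase gene, was at 4.31, 4.82 and 4.29 FPKM in WT 1 to WT 3 and at 5.49, 6.25 and 5.43 FPKM in HET 1 to HET 3, with no overlap (log2 difference 0.30, SE 0.0958). Ift27, a transport subunit gene, was at 11.4, 12.4 and 11.1 FPKM against 14.3, 14.5 and 13.4 FPKM (log2 difference 0.26, SE 0.0772). Neither passed (limma adjusted p = 1.00 each).

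Markers of the choroid plexus moved with the members and over a wider range. The order WT 2, HET 1 and HET 3 above the rest was found in 21 of the 22 tested choroid plexus markers (95.5%), all but Msx1. Ttr, the transthyretin gene and the most abundant of them, was at 1017, 2801 and 263 FPKM in WT 1 to WT 3 and at 1731, 87.4 and 3338 FPKM in HET 1 to HET 3. All 23 listed markers, Lmx1a below the filter included, summed to 315 to 3057 FPKM in WT 1 to WT 3. In HET 1 to HET 3 they summed to 119 to 3686 FPKM, and none of the 23 was at 0 in any library. The list's part in the spread of the motile cilia genes was not tested.

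The profiles of the pair of gene sets were not the same in every library. WT 1 and WT 3 differed in summed choroid plexus markers, 1137 against 315 FPKM, but not in the 10 motile cilia genes, at 35.9 against 36.1 FPKM. The highest to lowest ratio was 31.0 for the choroid plexus sum and 2.16 for the motile cilia sum. Ttr made up most of the choroid plexus sum in every library and alone had a ratio of 38.2. On the mean log2 deviation, which weighs each gene equally, the range over libraries was 2.65 for choroid plexus markers and 0.92 for the 10 genes. In the mean log2 deviation, choroid plexus markers stood at -0.02 in WT 1 and -1.01 in WT 3, and the 10 genes at -0.29 and -0.28. HET 2 was the lowest library for both.

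**Figure D4:**
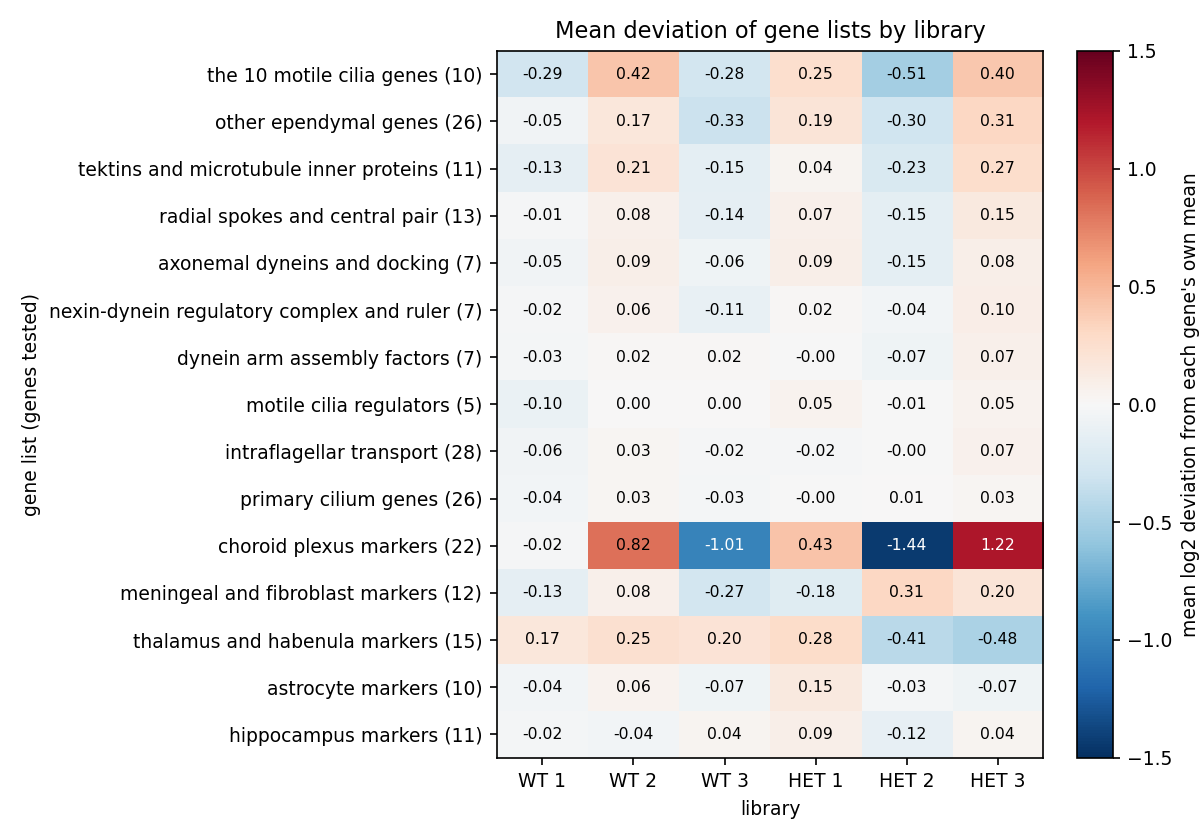
Mean log2 deviation from the gene's own mean, per library, for the 10 motile cilia genes and other lists. The motile cilia genes run from -0.51 (HET 2) to 0.42 (WT 2), the choroid plexus markers from -1.44 (HET 2) to 1.22 (HET 3), and the primary cilium genes stay within -0.04 to 0.03.

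Other neighbouring tissues showed other profiles. In mean log2 deviation, meningeal and fibroblast markers stood highest in HET 2 (0.31), the library lowest in the motile cilia genes, and next in HET 3 (0.20). Of the 12 tested, 2 had the members' order. The list was divided: Dcn and Fmod were highest in HET 2, and Igfbp2 and Igf2 in HET 3. The sum over the 14 listed was highest in HET 3 (169 FPKM, against 138 FPKM in HET 2). Thalamus and habenula markers were low in HET 2 (-0.41) and HET 3 (-0.48) and lay between 0.17 and 0.28 in the other libraries, so that HET 3 was high in motile cilia genes and low in this list. Astrocyte markers stayed within -0.07 to 0.15 and hippocampus markers within -0.12 to 0.09. By the depth estimate HET 3 was the deepest library and HET 1 the shallowest, and both were high in the 10 genes. The part of depth or of any of these tissues in the order of libraries was not tested.

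Tested genes other than the 10, genes of the lists included, were ranked by likeness to the mean of the 10, using Pearson's r over the 6 libraries among 2282 named genes with a range of at least 0.5 on the log2 scale. Of these, 137 (6.00%) reached an r of 0.9, among them 17 choroid plexus markers and 6 other ependymal genes. The 10 most alike had r from 0.97 to 0.99 and were, in order, Cpq, Rps27l, Vamp8, 1700003M02Rik, Sgk3, Il17rc, Iqub, Cd52, Hist1h3f and Apobec1. Vamp8, a vesicle fusion gene, had the widest range of them on the log2 scale (1.27), while 1700003M02Rik had the highest ratio of highest to lowest library in FPKM (3.92 against 2.5 for Vamp8). Vamp8 was at 17.8, 36.0 and 17.1 FPKM in WT 1 to WT 3 and at 29.0, 15.7 and 39.4 FPKM in HET 1 to HET 3. Cpq, a secreted peptidase gene, was at 14.2, 18.4 and 13.6 FPKM against 16.8, 12.7 and 18.4 FPKM. Iqub, a radial spoke gene from the list of other ependymal genes, was at 1.71, 2.59 and 1.41 FPKM against 2.5, 1.26 and 3.05 FPKM. Hist1h3f has near-identical copies, so its values are uncertain. With 6 libraries split 3 and 3, a gene that divides the same way tends to a high r. Nfat5, the disrupted gene, divided the opposite way (r = -0.82), with WT 1, WT 3 and HET 2 highest, as in 8.90% of all tested genes. Its highest to lowest ratio was 1.27, and any tie to the levels of the members was not tested.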

How the data were processed

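Per the labels' protocols, 1.3 ug of Trizol-extracted hippocampal RNA went into each library, prepared by the directional NEBNext Ultra II method. The submitters' processing notes name TopHat and the build mm10. The annotation, the TopHat version and the program behind the abundances are not given in the sources. The files hold deposited values in log2, read as log2(FPKM + 1) from the values, so differences of low genes are understated. Depth was estimated from the steps between low values: 68.3% to 72.4% of them lay within 0.15 of a whole step. It is not a deposited count.

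The 13122 genes that reached 1 FPKM in 3 libraries or more were fitted with limma 3.58.1 (R 4.3.3) on genotype alone, using the trend and robust options of eBayes and Benjamini-Hochberg adjustment. The procedure was also run on simulated data. Their noise was drawn independently for each gene, so they lacked the library differences that many genes share here. All 10 members are named; from each other list up to 4 genes with the smallest p and 3 with the highest level could be named, and the 10 most like the members. Some genes that this rule could name are not reported here. The members and lists were chosen with earlier results of these data known. Gene positions are from GENCODE and RefSeq tables of GRCm38. Other settings tried were median scaling, quantile normalization, a filter at a mean of 5 FPKM, no filter, no trend or robust option, a pseudocount of 0.1, an adjusted p of 0.1, a replicate block and each library left out in turn. Plots used matplotlib 3.10.9 (Python 3.11.15).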

Additional observations from a re-analysis of the deposited data

How the results depend on the processing

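With the replicate number as a block, 0 genes passed the threshold and the members' median log2 difference was 0.16. The labels do not say that the numbers pair the samples. Deviations of same-numbered libraries from their genotype means correlated at -0.21, -0.25 and -0.16, and those of differently numbered libraries at 0.05 to 0.17. Deviations from a shared mean are tied to each other, so these correlations cannot exclude pairing. In the other settings with all 6 libraries 0 genes passed as well, and the median of the 10 stayed within 0.15 to 0.18. The filter at a mean of 5 FPKM kept only Ccdc153, Rsph1, Fam183b and Foxj1, whose median was 0.08. With 1 library left out, 0 to 8 genes passed, none of them a member. They were Snord57 without WT 1, Rims1 without WT 2, Rn45s without HET 3 and 8 genes without HET 1. Among the 8, Slc17a6, Prkcd, Shox2 and Plekhg1 are on the thalamus and habenula list. That list was low in HET 2 and HET 3, the HET libraries left in that fit. The members' median ran from -0.03 to 0.53. The list medians ran from 0.00769 to 0.120 for regulators, -0.0777 to 0.0430 for assembly factors, -0.0244 to 0.0519 for intraflagellar transport and 0.00123 to 0.0419 for primary cilium genes. They ran from 0.0286 to 0.288 for other ependymal genes, -0.0436 to 0.0949 for axonemal dyneins, -0.0373 to 0.141 for radial spoke genes, -0.0622 to 0.130 for tektins, -0.0448 to 0.0501 for nexin and ruler genes and -0.382 to 0.914 for choroid plexus markers; the cause was not tested. Over 124 alternative values of single members, 16 changed sign and 0 passed (smallest limma adjusted p = 0.888). The range of the members' mean over libraries was 1.17 with a pseudocount of 0.1. Depth limits Meig1 most, with about 4.27 fragments in its lowest library.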

Other observations

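A pair of genes on the list of tektins and inner proteins, picked out after their values were seen, had WT 2 as their highest library. 1700013F07Rik was at 0.832, 3.93 and 1.65 FPKM in WT 1 to WT 3 and at 2.28, 1.87 and 2.72 FPKM in HET 1 to HET 3. 1700007K13Rik was at 1.5, 4.08 and 1.83 FPKM in WT 1 to WT 3 and at 2.22, 1.88 and 3.04 FPKM in HET 1 to HET 3. Fam183b, Meig1 and Tmem212, among the 10 motile cilia genes, also had their highest value in WT 2.

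The neurogenic niche borders the ventricle in other brain regions. Of 12 of its markers listed, 7 were expressed above the filter, 6 lay higher and 1 lower in the libraries labelled TonEBP+/- (median log2 difference 0.10), 0 of the 7 passed in limma (0 had an unadjusted p under 0.05), and 0 had the library order of the motile cilia genes, a share not set apart from the 10.8% of all tested genes by 7 genes. Cd24a, which is also on the list of other ependymal genes, had its highest values in WT 2 and HET 3. Sox4, a transcription factor gene of immature neurons, was at 5.5, 5.0 and 6.38 FPKM in WT 1 to WT 3 and at 7.19, 5.62 and 6.23 FPKM in HET 1 to HET 3. Striatum markers showed that order in 1 of 8, which was Ppp1r1b, the gene for a phosphatase inhibitor, at 38.9, 43.2 and 28.4 FPKM in WT 1 to WT 3 and 40.3, 28.4 and 48.0 FPKM in HET 1 to HET 3.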
